A study of Mus musculus with 45 samples.

Results

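The enzymes that write, erase and move the marks on histones were followed in the hippocampus of mice on 2 diets. The group was taken by gene name alone, as all protein-coding genes of the expression table whose symbol begins with Kmt, Kdm, Kat, Hdac, Setd or Chd followed by a number, together with Ep300 and Crebbp. The rule gave 65 of the 15897 genes in the table, with 8 Kat, 11 Hdac, 8 Kmt, 8 Setd, 18 Kdm and 10 Chd genes besides the pair Ep300 and Crebbp. All 65 protein-coding genes that carry such a symbol in the annotation were present, so no member was lost to the filter on low values, and the rule used no measured value.

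RNA of the whole hippocampus was sequenced from 45 female C57Bl/6J mice of 4 genotypes, each on a standard diet (STD, 5% fat by weight, 0% cholesterol) or a typical Western diet (TWD, 21% fat, 0.15% cholesterol) from 7 to 13 months of age. The TWD chow was also high in sucrose, and the study gives no sucrose content for the STD. AwTw mice were wild-type littermates, AwT+ mice carried human Tau with the P301L mutation under the CaMKII promoter, A+Tw mice carried a chimeric mouse and human APP with the Swedish mutation and human PS1dE9 in 1 transgene under the mouse PrP promoter, and A+T+ mice carried both transgenes. On TWD each genotype had 6 mice, and on STD there were 6 AwTw, 6 AwT+, 5 A+Tw but 4 A+T+ mice. The labels put 20 mice in batch 0 (8 on STD, 12 on TWD) and 25 in batch 1 (13 on STD, 12 on TWD) without saying what a batch is, and batch 0 held 1 A+Tw/STD mouse. The values are on a log2-like scale, so a difference of 1 is close to a doubling, and they are not per transcript length, so levels were not compared between genes.

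Histone acetyltransferases such as Ep300 (p300), its paralog Crebbp (CBP) and the Kat enzymes place acetyl groups on histone tails, which loosens chromatin at enhancers and promoters, and Hdac enzymes take them off. Kmt enzymes and several Setd proteins methylate histone lysines, Kdm enzymes remove the methyl groups, and Chd proteins use ATP to slide or evict nucleosomes. In neurons, CBP and p300 act as coactivators of CREB in gene programmes of long-term memory, and mutations in many of these genes cause intellectual disability in people. Bulk tissue holds neurons, glia and vessels together, and a change in the number of cells of a type cannot be told apart from a change in RNA per cell.

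The start-site sequence of a few members is shown first, because their levels differed between the diets in opposite directions. RefSeq start sites (GRCm38.p6) were matched for 49 of the 65 members, and for 23 of them the 250 bases before the listed start lay wholly before the annotated 5′ end of the gene. Windows are shown for members of these 23 whose listed start lay within 1000 bases of that 5′ end. They belong to the 2 lower and the 2 higher such members with the smallest p. Capitals mark a GC box (GGGCGG on either strand), the letters bound by Sp1-type factors.
Kdm6a, chrX:18162325-18162574, plus strand: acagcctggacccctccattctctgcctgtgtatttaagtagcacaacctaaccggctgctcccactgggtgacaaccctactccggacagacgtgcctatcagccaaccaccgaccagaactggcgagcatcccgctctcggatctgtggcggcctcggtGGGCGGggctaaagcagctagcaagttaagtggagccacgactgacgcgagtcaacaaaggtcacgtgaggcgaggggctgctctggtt
Hdac9, chr12:34917096-34917345, minus strand: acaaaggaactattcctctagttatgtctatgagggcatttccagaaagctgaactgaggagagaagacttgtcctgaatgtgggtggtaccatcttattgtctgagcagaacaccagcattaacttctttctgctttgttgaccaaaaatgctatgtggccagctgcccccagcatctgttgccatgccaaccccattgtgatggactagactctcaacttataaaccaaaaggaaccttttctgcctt
Hdac5, chr11:102230173-102230422, minus strand: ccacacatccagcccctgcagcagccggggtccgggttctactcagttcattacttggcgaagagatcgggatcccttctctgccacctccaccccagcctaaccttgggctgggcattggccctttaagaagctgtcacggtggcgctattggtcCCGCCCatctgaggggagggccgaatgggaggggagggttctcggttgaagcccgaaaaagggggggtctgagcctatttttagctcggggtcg
Kat2a, chr11:100712468-100712717, minus strand: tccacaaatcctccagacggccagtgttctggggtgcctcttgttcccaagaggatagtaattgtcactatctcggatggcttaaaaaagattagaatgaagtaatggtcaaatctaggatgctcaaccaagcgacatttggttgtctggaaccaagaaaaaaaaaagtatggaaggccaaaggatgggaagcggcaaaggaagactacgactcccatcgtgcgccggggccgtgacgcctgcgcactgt
A GC box stood in the Kdm6a and Hdac5 windows and in neither of the other 2. Among the 23 windows it stood in 3 of 5 of lower members, 1 of 2 of higher members and 10 of 16 of members not called. These windows are too few to relate it to the direction of the diet difference. The GC box was found in 14 of the 23 member windows (60.9%), against 32.7% of all 32851 windows of that length. Member windows were 1 a gene and ended at or before the annotated 5′ end. The windows of all 27025 genes were taken without this choice, at times several a gene, so the shares compare unlike sets. The ETS core CCGGAAG was found in 1 of the 23 (6.91% of all windows), the cyclic AMP response element core TGACGT in 1 (6.47%) and the forkhead motif GTAAACA in 0 (3.17%), each searched on both strands, and none of these was in the 4 windows shown. The median GC content was 59.2% in the 23 windows and 52.4% in all windows. The Hdac9 window, at 44.4% GC, held no CpG dinucleotide.

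The label of the APP and PS1 transgene was checked in every mouse by 2 genes, and the label of the Tau transgene was not checked. App, the endogenous gene that the APP transgene adds to, lay between 15.05 and 15.80 in the 21 A+ mice and between 14.29 and 14.86 in the 24 others. Prnp, whose promoter drives that transgene, lay between 14.66 and 15.02 in A+ mice and between 13.28 and 13.98 in the others. Hippocampal and neuronal markers were measured at mean values of 8.75 and above, and none was near the bottom of the table. Of the 45 mice, 4 stood apart by their mean correlation with the others, at 0.937 to 0.953 against a median of 0.971. They were A+T+/TWD replicate 1, AwTw/TWD replicate 3 and AwTw/STD replicate 4 of batch 1 and A+Tw/TWD replicate 3 of batch 0, so 3 of the 4 were on TWD. The results on diet are given with and without them.

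The first question was what the Western diet did to these genes irrespective of genotype. Over all mice, 28 of the 65 members differed between the diets (limma, adjusted p below 0.05), with 17 lower and 11 higher on TWD. These are 43.1% of the members, against 29.4% of all 15897 genes. Of the members 26.2% were lower against 13.4% of all genes, and 16.9% were higher against 16.0% of all genes. The median difference was -0.05 over the members and -0.00 over all genes. The p300 gene Ep300 and the demethylases Kdm5a and Kdm6a fell. Neither the acetyltransferases nor the deacetylases moved one way, since Kat2b, Kat6a, Kat6b and Hdac9 fell and Kat2a, Kat5, Kat8, Hdac1, Hdac5 and Hdac11 rose. All 28 had the same sign in both batches, which together gave the calls, so this is no separate replication. Without the 4 mice that stood apart 0 of the 65 members and 0% of all genes were called, with 30 members (27.6% of all genes) at an unadjusted p below 0.05, and in batch 0 alone 0 members and 0% of genes were called. All 28 kept their sign without the 4 mice. Among the members the smallest adjusted p there was 0.108, shared by Setd5, Chd9, Hdac1, Kat6a, Kdm5a, Kat6b, Hdac11 and Kat8. Hdac1 and Kat8 were each at 0.15.

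**Figure D1:**
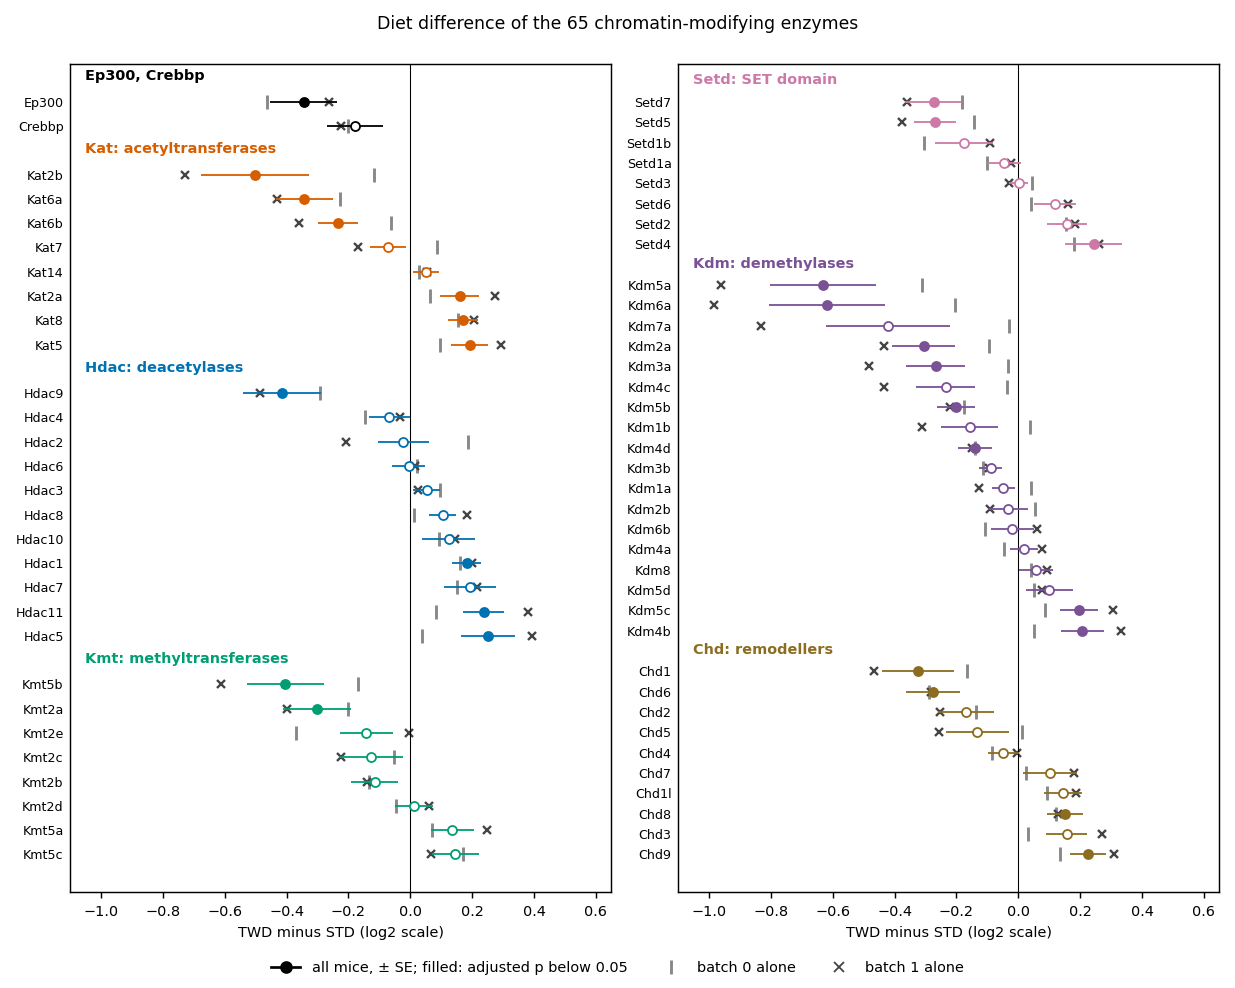
Difference between the diets (TWD minus STD, log2 scale) for each of the 65 members, grouped by family. Circles with bars give the fit over all 45 mice ± SE, filled where adjusted p was below 0.05, grey ticks give batch 0 alone and crosses batch 1 alone. Kdm5a and Kdm6a lie farthest to the left, and Ep300 and Chd6 are the 2 called members whose batch 0 value lies farther from 0 than their batch 1 value.

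Ep300 fell by 0.34 on TWD (SE 0.11, adjusted p = 0.0209). In batch 0 the 8 STD mice had values from 9.68 to 10.67 with a median of 10.18, and the 12 TWD mice from 8.71 to 10.35 with a median of 9.74. In batch 1 the 13 STD mice lay between 9.33 and 10.42 with a median of 9.93, and the 12 TWD mice between 9.33 and 10.22 with a median of 9.69. TWD mice were lower by median in both batches, and the ranges overlapped in both. The difference was -0.46 (SE 0.21, adjusted p = 0.82) in batch 0 alone and -0.26 (SE 0.11, adjusted p = 0.0516) in batch 1 alone, so neither batch passed by itself. Without the 4 mice that stood apart it was -0.29 (adjusted p = 0.114).

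Crebbp did not pass, with a difference of -0.18 (SE 0.09, adjusted p = 0.119). Its STD mice had medians of 9.98 in batch 0 and 10.04 in batch 1, and its TWD mice 9.89 and 9.76. The ranges lay close together, from 9.57 to 10.79 on STD and from 9.46 to 10.23 on TWD in batch 0, and from 9.52 to 10.51 on STD and from 9.44 to 10.43 on TWD in batch 1. The difference was -0.20 in batch 0 and -0.22 in batch 1, nearly equal in both. Crebbp did not pass in either batch alone or without the mice that stood apart. Nor did it pass with the trend over transcript length and GC content removed, or with the first residual component in the fit. These steps are described below. With the level of 10 choroid plexus markers in the fit, Crebbp came to -0.23 and passed (adjusted p = 0.0353). The mean standardized level of these markers ran from -1.51 to 0.93 on TWD and from -1.20 to 1.37 on STD in batch 0. In batch 1 it ran from -1.41 to 1.14 on TWD and from -1.32 to 1.20 on STD. Its medians were -0.52 on TWD and 0.72 on STD in batch 0, and 0.52 and 0.00 in batch 1. None of the 10 was called for diet.

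Among the 8 Kat acetyltransferases, 3 fell, 3 rose and 2 did not pass. Kat6a and Kat6b, paralogs that acetylate histone H3, fell by 0.34 (SE 0.09, adjusted p = 0.0157) and 0.23 (SE 0.06, adjusted p = 0.0159). Kat6a medians went from 9.78 on STD to 9.53 on TWD in batch 0 and from 9.76 to 9.27 in batch 1. Kat6b medians went from 9.75 to 9.57 in batch 0 and from 9.74 to 9.43 in batch 1. Kat2b (PCAF) had the largest difference of the family at -0.50 (SE 0.17, adjusted p = 0.0310), which was -0.12 in batch 0 and -0.73 in batch 1. Its close paralog Kat2a (GCN5), the acetyltransferase of the SAGA coactivator, moved the other way by 0.16 (SE 0.06, adjusted p = 0.0499). Kat8 (MOF), which acetylates histone H4, rose by 0.17 (SE 0.05, adjusted p = 0.0159) and Kat5 (Tip60), the catalytic subunit of NuA4, by 0.19 (SE 0.06, adjusted p = 0.0195). Kat8 differed by a like amount in both batches, 0.15 in batch 0 and 0.20 in batch 1, while Kat5 differed by 0.10 and 0.29. The 2 members that did not pass were Kat7 at -0.07 and Kat14 at 0.05.

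The 11 Hdac deacetylases held 3 that rose, 1 that fell and 7 that did not pass. Hdac1, a class I enzyme of the NuRD, Sin3 and CoREST corepressors, rose by 0.18 (SE 0.05, adjusted p = 0.0157). Its 8 STD mice of batch 0 lay between 8.85 and 9.08 with a median of 8.95, and the 12 TWD mice between 8.91 and 9.28 with a median of 9.12. In batch 1 STD mice ran from 8.61 to 9.17 with a median of 9.0 and TWD mice from 8.77 to 9.38 with a median of 9.19. The difference was 0.16 in batch 0 and 0.20 in batch 1, so Hdac1 was among the members whose batches lay closest together. Hdac11, the only class IV enzyme, rose by 0.24 (SE 0.07, adjusted p = 0.0159), with 0.08 in batch 0 and 0.38 in batch 1. Hdac5, a class IIa enzyme that shuttles out of the nucleus on neuronal activity, rose by 0.25 (SE 0.09, adjusted p = 0.0306), with 0.04 and 0.39. Hdac9, another class IIa enzyme, fell by 0.41 (SE 0.13, adjusted p = 0.0199), the largest difference of the family, with -0.29 in batch 0 and -0.49 in batch 1. Hdac2, the class I partner of Hdac1, had a difference of -0.02 over all mice (adjusted p = 0.849) that was 0.19 in batch 0 and -0.21 in batch 1. The other 6 deacetylases, Hdac3, Hdac4, Hdac6, Hdac7, Hdac8 and Hdac10, lay between -0.07 and 0.19.

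Of the 8 Kmt methyltransferases, 2 fell, none rose and 6 did not pass. Kmt5b, which adds methyl groups to histone H4, fell by 0.40 (SE 0.13, adjusted p = 0.0206), with -0.17 in batch 0 and -0.61 in batch 1. Kmt2a (MLL1), which methylates histone H3 at active promoters, fell by 0.30 (SE 0.11, adjusted p = 0.0361), with -0.20 and -0.40. Kmt2e differed by -0.37 in batch 0 and by -0.00 in batch 1 and did not pass over all mice (-0.14, adjusted p = 0.188). Kmt2d, the longest transcript of the members, differed by 0.01.

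Of the 8 Setd genes, 2 fell, 1 rose and 5 did not pass. Setd5, a SET domain protein linked to intellectual disability, had the smallest p of all members and fell by 0.27 (SE 0.07, adjusted p = 0.0157). Its 8 STD mice of batch 0 lay between 10.03 and 10.64 with a median of 10.45, and the 12 TWD mice between 9.99 and 10.48 with a median of 10.24. In batch 1 STD mice ran from 9.92 to 10.93 with a median of 10.51 and TWD mice from 9.71 to 10.39 with a median of 10.16. Both batches put the TWD median below the STD median, and the fitted differences were -0.14 in batch 0 and -0.38 in batch 1. Setd7, a methyltransferase of histone H3 and other proteins, fell by 0.27 (SE 0.09, adjusted p = 0.0257) and Setd4 rose by 0.24 (SE 0.09, adjusted p = 0.0406). Setd2, which methylates histone H3 along transcribed genes, lay at 0.16 over all mice (adjusted p = 0.0568).

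The 18 Kdm demethylases held the largest differences of all members, with 6 that fell, 2 that rose and 10 that did not pass. Kdm5a, which removes the promoter mark of histone H3, fell by 0.63 (SE 0.17, adjusted p = 0.0157). In batch 0 its STD mice lay between 8.39 and 8.96 with a median of 8.62 and its TWD mice between 7.52 and 8.97 with a median of 8.55. In batch 1 STD mice ran from 7.74 to 9.57 with a median of 9.0 and TWD mice from 6.41 to 9.0 with a median of 8.25. The spread was wide on TWD in batch 1, where the lowest mouse was AwTw/TWD replicate 3, one of the 4 that stood apart, and without the 4 the difference was -0.42. Kdm6a (UTX), which removes the Polycomb mark of histone H3, fell by 0.62 (SE 0.19, adjusted p = 0.0191), with medians of 8.49 on STD and 8.02 on TWD in batch 0 and of 8.83 and 7.86 in batch 1. Its lowest values, 6.02 and 6.25, were those of A+T+/TWD replicate 1 and AwTw/TWD replicate 3, and without the 4 mice its difference was -0.41. Kdm5b fell by 0.20 (SE 0.06, adjusted p = 0.0209), Kdm2a by 0.31 (SE 0.10, adjusted p = 0.0257), Kdm3a by 0.27 (SE 0.10, adjusted p = 0.0341) and Kdm4d by 0.14 (SE 0.06, adjusted p = 0.0482). Kdm4d was measured at a low level, with means from 5.41 to 5.57 over the batches and diets, close to those of Kdm5d (5.41 to 5.51). Kdm5c and Kdm4b rose, by 0.20 (SE 0.06, adjusted p = 0.0211) and 0.21 (SE 0.07, adjusted p = 0.0259), so the paralogs of the Kdm5 family parted, with Kdm5a and Kdm5b lower and Kdm5c higher. Kdm5d lies on the Y chromosome, and in these female mice its values, with a mean at percentile 4.77 of all genes, cannot be told apart from reads of its X-linked paralog Kdm5c. Kdm7a lay at -0.42 and did not pass (adjusted p = 0.0987), with -0.03 in batch 0 and -0.83 in batch 1.

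Of the 10 Chd remodellers, 2 rose, 2 fell and 6 did not pass. Chd9 rose by 0.23 (SE 0.06, adjusted p = 0.0157), with medians of 11.92 on STD and 12.03 on TWD in batch 0 and of 11.79 and 12.12 in batch 1. Chd8, whose loss is linked to autism, rose by 0.15 (SE 0.06, adjusted p = 0.0482), by 0.12 in batch 0 and 0.13 in batch 1. Chd1, which travels with elongating polymerase, fell by 0.33 (SE 0.12, adjusted p = 0.0339), the largest difference of the family, and Chd6 by 0.28 (SE 0.09, adjusted p = 0.0225). Chd6 was -0.29 in batch 0 and -0.28 in batch 1, and it and Ep300 were the only ones of the 28 called members that were not farther from 0 in batch 1. Chd3 and Chd4, the ATPases of the NuRD complex that also holds Hdac1, were at 0.16 and -0.05 and did not pass.

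**Figure D2:**
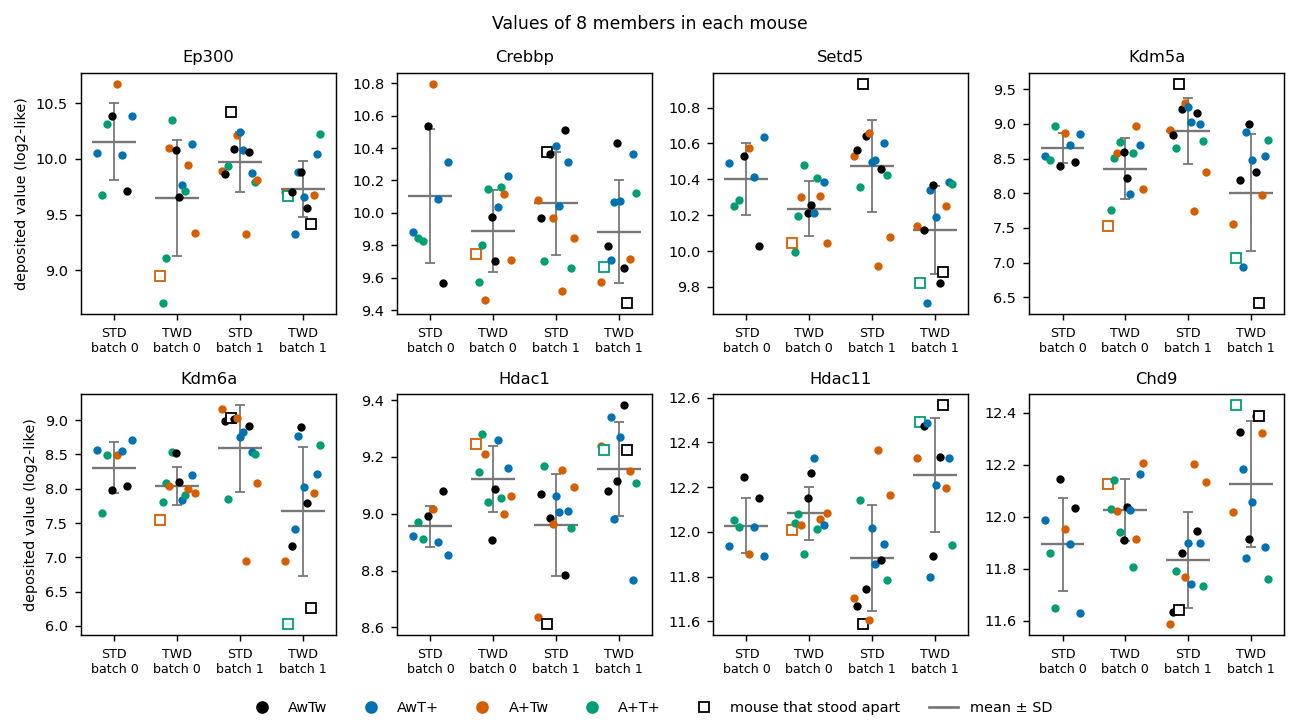
Deposited values (log2-like) of 8 members in each of the 45 mice, by diet and batch, coloured by genotype, with the mean ± SD in grey and open squares for the 4 mice that stood apart. STD and TWD mice overlap in every panel, and the 2 open squares on TWD in batch 1 lie among the lowest values of Kdm5a and Kdm6a and the highest of Hdac11 and Chd9.

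Each batch was then taken alone. In batch 1, 30 of the 65 members were called, 12 higher and 18 lower, against 40.9% of all genes, 20.3% higher and 20.6% lower. In batch 0 none was called, with a smallest adjusted p of 0.82 among the members and with 6 members (5.55% of all genes) at an unadjusted p below 0.05, which were Hdac1, Kmt2e, Chd6, Ep300, Setd1b and Hdac2. The signs of the batches were equal for 55 of the 65 members (84.6%), against 64.0% of all genes. The median size of the difference was 0.10 over the members in batch 0 and 0.22 in batch 1, and over all genes 0.09 and 0.23. In all, 52 of the 65 members and 78.6% of all genes lay farther from 0 in batch 1. No member and 0% of all genes passed the test of the difference between the batches itself (limma, diet by batch term), with 12 members (28.0% of all genes) at an unadjusted p below 0.05 and the smallest adjusted p, 0.126, for Hdac2. For Hdac2 this term, the diet difference in batch 1 minus that in batch 0, was -0.42 (SE 0.16). In each batch the STD and TWD mice overlapped for every member, as they did for all genes (0%).

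The diet differences followed the length and base composition of the transcripts, in the members as in the whole table. The 17 members that fell had a median transcript length of 7.92 kb and a median GC content of 47.6%, and the 11 that rose 3.27 kb and 52.8%. Across the 65 members Spearman's rho of the difference was -0.49 with length and 0.51 with GC content, and across 15695 genes it was -0.47 and 0.62. By batch, rho with GC content over all genes was 0.15 in batch 0 and 0.68 in batch 1, and over the members 0.21 and 0.55. These values describe genes of the same libraries and are not independent replicates. With the trend over length and GC content taken out of each mouse, 14 members were called, 8 higher and 6 lower, against 13.4% of all genes, and 11 of the 28 were among them. Ep300 was one of these, at -0.24 (adjusted p = 0.0477), with Setd5, Kat6a, Kdm5a, Kdm6a and Kdm4d lower and Chd9, Chd8, Kdm5c, Kdm4b and Hdac11 higher. Setd2, Chd3 and Kdm5d passed with the trend removed and not in the fit without this step, and 17 of the 28, among them Kat6b, Kat8, Hdac1 and Kmt5b, no longer passed. Kdm5d, on the Y chromosome and counted among the 8, went from 0.10 to 0.37 in these female mice. The step thus enlarged some differences, such as Setd2 from 0.16 to 0.42, and shrank others, such as Hdac1 from 0.18 to 0.11.

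**Figure D3:**
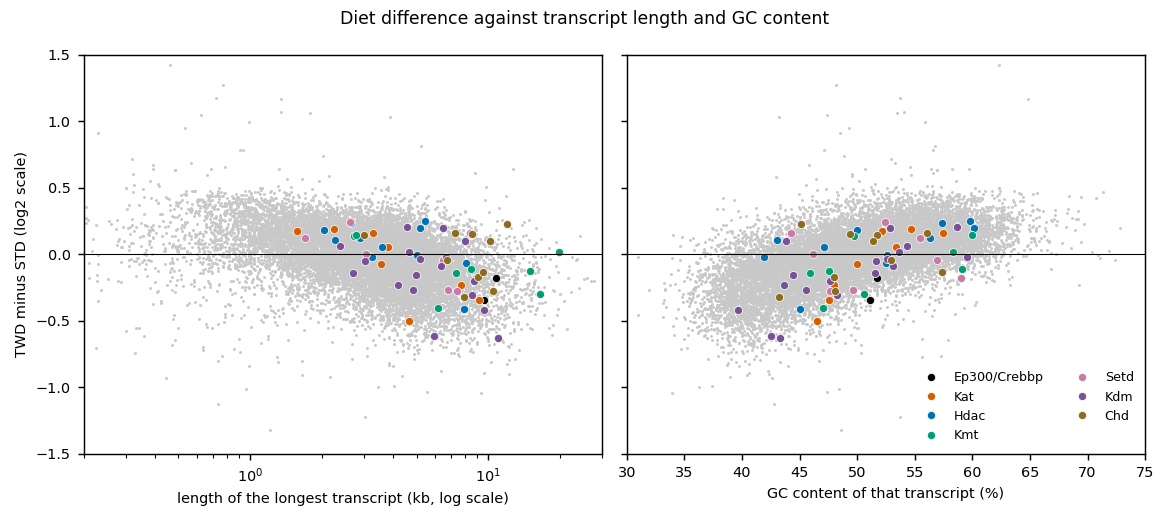
Difference between the diets (TWD minus STD, log2 scale) against the length of the longest annotated transcript (log axis) and its GC content, with all genes in grey and the members coloured by family. Members with long transcripts of low GC content lie mostly below 0, as the grey cloud does, and 16 genes outside the axes are not drawn.

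The same split was seen among mice of 1 group. After the 8 groups and the batch were fitted out, the members that fell had a median correlation of 0.60 with each other over the 45 mice, those that rose 0.50, and members of the 2 kinds -0.49. Over all called genes the same medians were 0.63, 0.65 and -0.63, so this is a description that holds for the whole table. The first component of these residuals held 41.3% of their variance. Its score ran from -2.42 to 1.24 with a median of -0.85 in the TWD mice of batch 1 and from -1.23 to 1.95 with a median of 0.87 in the STD mice, and its medians were -0.16 and 0.16 in batch 0. With this score, which still held the diet difference, in the fit, 0 of the 65 members and 0% of all genes were called. At an unadjusted p below 0.05 stood 10 members (8.06% of all genes). All 28 members kept their sign in this fit of the same mice. Cytosolic ribosomal protein genes moved with diet too, with 21 of 24 higher on TWD, and their mean standardized level ran from -0.84 to 1.62 on TWD and from -1.60 to 1.72 on STD in batch 1, and from -0.63 to 1.55 and from -1.15 to 1.00 in batch 0. Of 12 microglial markers, 7 were higher and 1 lower, with levels from -0.89 to 1.12 on TWD and from -1.34 to 0.74 on STD in batch 0 and from -0.82 to 1.31 and from -1.18 to 1.47 in batch 1, and all 12 were measured, at mean values of 7.15 and above. Of 8 oligodendrocyte markers 4 were higher and 0 lower, of 8 neuronal markers 2 and 3, of 8 astrocyte markers 2 and 3, of 8 endothelial markers 2 and 1, of 8 hippocampal markers 1 and 1, and of 4 measured blood markers 0 and 0. The part of these in the members' differences was not tested.

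**Figure D4:**
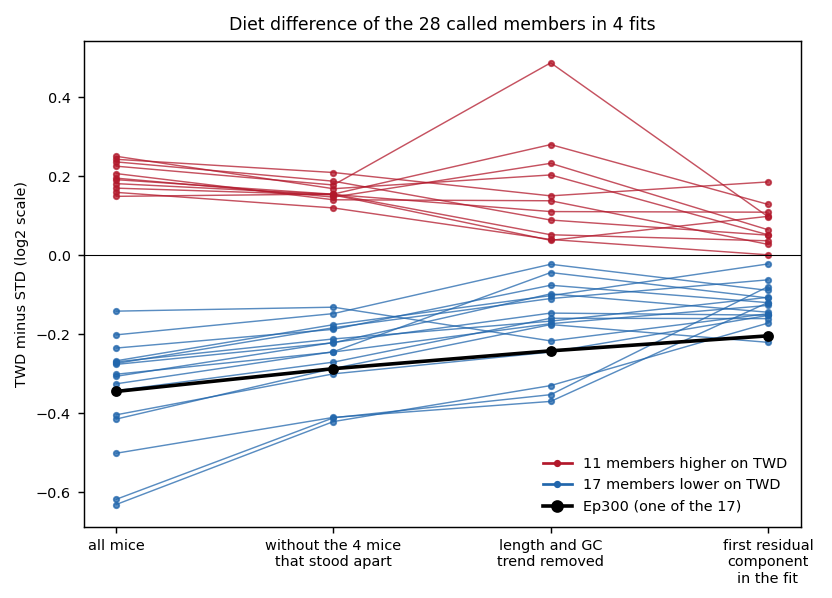
Difference between the diets (TWD minus STD, log2 scale) of the 28 called members in 4 fits, with red lines for the 11 higher and blue lines for the 17 lower on TWD and Ep300 in black. Every line stays on its side of 0, and each lower member except Kdm4d lies nearer to 0 in the last fit than in the first. The 4 fits use the same mice or a part of them.

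The diet comparison was repeated within each genotype. In AwTw mice 5 of the 65 members were called, against 9.35% of all genes, with 29 (40.2% of all genes) at an unadjusted p below 0.05. Setd2 rose by 0.40 (SE 0.12), Kat2a by 0.39 (SE 0.12) and Hdac11 by 0.40 (SE 0.13), and Setd5 fell by 0.42 (SE 0.13) and Kat2b by 1.00 (SE 0.33), all 5 at an adjusted p of 0.0498. Kat2b lay between 7.64 and 8.93 with a median of 8.13 in the 6 AwTw/STD mice and between 6.18 and 7.95 with a median of 7.23 in the 6 AwTw/TWD mice. Setd2 lay between 9.44 and 9.86 with a median of 9.60 on STD and between 9.61 and 10.34 with a median of 10.05 on TWD. The ranges of the diets overlapped for all 5. These calls stood at the threshold, and 32 of the 45 fits that left out 1 mouse, as well as the fit without the 4 mice, called none.

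No member passed in the transgenic genotypes. Batch 1 held 4 AwTw mice on each diet and 2 A+T+ mice on each. It held 3 AwT+/STD, 4 AwT+/TWD, 4 A+Tw/STD and 2 A+Tw/TWD mice. The part of this make-up in the calls was not tested. In AwT+ mice 0 members and 0% of all genes were called (limma), with 8 members (7.44% of all genes) at an unadjusted p below 0.05 and the smallest p for Kdm4d (-0.34, SE 0.10, adjusted p = 0.646). Kdm4d lay between 5.39 and 5.82 in AwT+/STD and between 5.03 and 5.57 in AwT+/TWD mice. In A+Tw mice 0 members and 0% were called, with 2 members (4.43%) at an unadjusted p below 0.05 and the smallest p for Kdm5b (-0.33, SE 0.13, adjusted p = 0.706). In A+T+ mice 0 members and 0% were called, with 3 members (2.57%) and the smallest p for Hdac7 (0.48, SE 0.18, adjusted p = 0.998), which lay between 7.99 and 8.31 in the 4 STD mice and between 8.28 and 8.83 in the 6 TWD mice. Ep300 was lower on TWD in all 4 genotypes without passing in any, with differences of -0.37 (SE 0.21) for AwTw, -0.30 (SE 0.21) for AwT+, -0.40 (SE 0.23) for A+Tw and -0.31 (SE 0.24) for A+T+. Crebbp differed by -0.38 (SE 0.17) for AwTw, -0.08 (SE 0.17) for AwT+, -0.35 (SE 0.18) for A+Tw and 0.14 (SE 0.19) for A+T+.

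The 4 genotypes share no mice. Of the 65 members 21 were lower on TWD in all 4, beside 23.5% of all genes. Higher in all 4 were 16 of the 65, beside 23.4% of all genes. Setd5 and Kat6b were the 2 members whose mice on the 2 diets did not overlap in a genotype, both in AwT+, where 0.937% of all genes did not overlap. Setd5 lay between 10.41 and 10.64 in the 6 AwT+/STD mice and between 9.71 and 10.39 in the 6 AwT+/TWD mice. Kat6b lay between 9.78 and 9.98 on STD and between 9.30 and 9.71 on TWD. No member was free of overlap in AwTw (0.352% of all genes), A+Tw (0.164%) or A+T+ mice (0.528%).

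**Figure D5:**
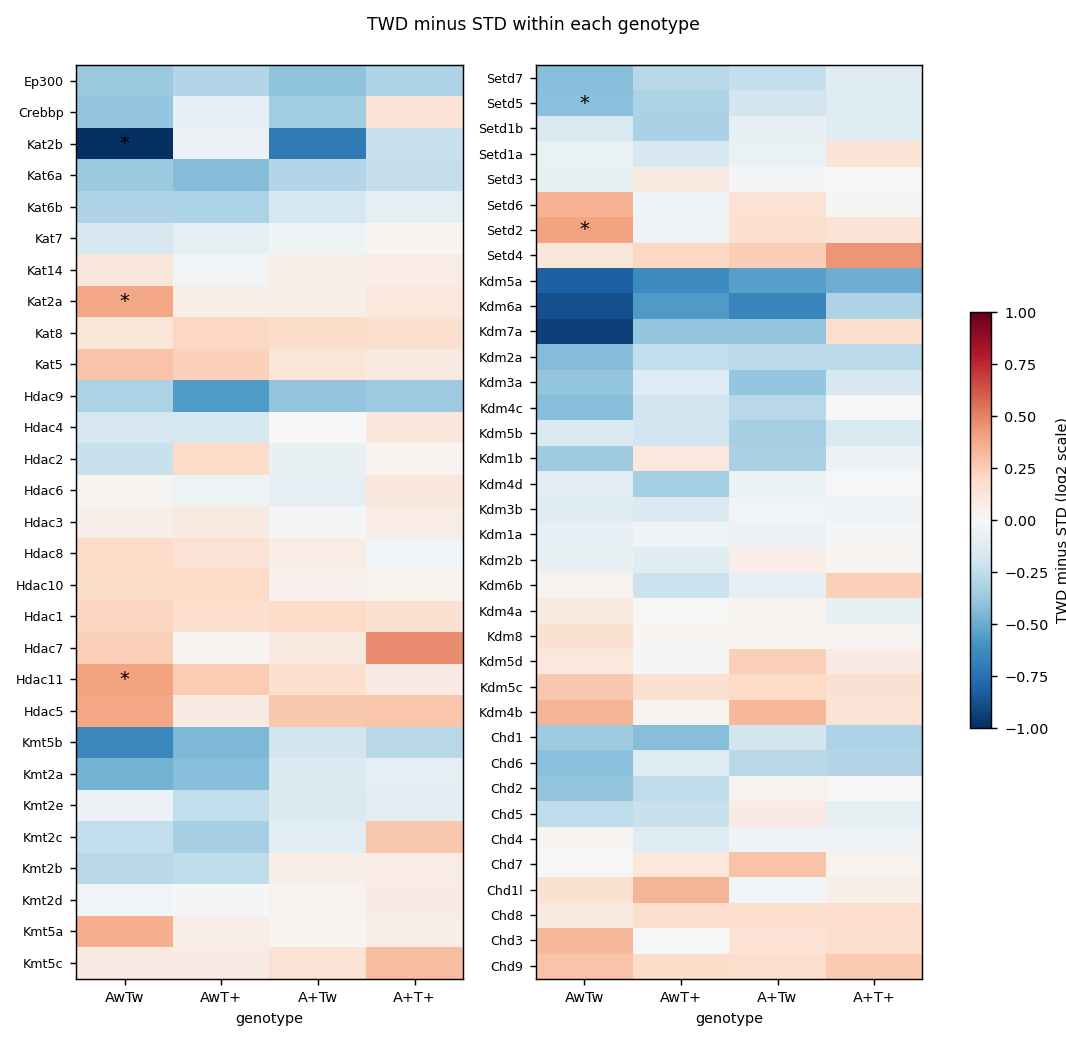
Difference between the diets (TWD minus STD, log2 scale, colour) of the 65 members within each of the 4 genotypes, with a star where adjusted p was below 0.05. Stars stand only in the AwTw column, on Setd2, Kat2a, Hdac11, Setd5 and Kat2b, and Ep300, Kdm5a and Kdm6a are blue in all 4 columns.

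The transgenes were compared with wild type on the same diet. On STD, 0 members were called in AwT+ (0% of all genes), A+Tw (0.925%) or A+T+ mice (1.32%). At an unadjusted p below 0.05 there was 1 member in AwT+ (2.39% of all genes), 2 in A+Tw (5.66%) and 2 in A+T+ (14.3%). The smallest p was that of Setd2 in AwT+ (0.28, SE 0.12, adjusted p = 0.999), of Chd2 in A+Tw (-0.49, SE 0.18, adjusted p = 0.489) and of Crebbp in A+T+ (-0.47, SE 0.19, adjusted p = 0.25). Crebbp lay at 9.66, 9.71, 9.83 and 9.84 in the 4 A+T+/STD mice and between 9.57 and 10.53 with a median of 10.37 in the 6 AwTw/STD mice. On TWD, 0 members were called in AwT+ (0% of all genes), A+Tw (0.824%) or A+T+ mice (0.730%), and 1 member stood at an unadjusted p below 0.05 in each (3.04%, 5.20% and 7.76% of all genes). These were Chd1l in AwT+ (0.24, SE 0.11, adjusted p = 0.865), Kmt2b in A+Tw (0.33, SE 0.14, adjusted p = 0.791) and Hdac8 in A+T+ (-0.22, SE 0.09, adjusted p = 0.474). Ep300 differed from wild type on STD by 0.01 for AwT+, -0.10 for A+Tw and -0.17 for A+T+ and on TWD by 0.09, -0.12 and -0.11, with SE from 0.21 to 0.24, so its transgene differences were smaller than their errors. Crebbp differed by -0.06 in AwT+ and -0.17 in A+Tw on STD and by 0.24, -0.14 and 0.06 on TWD.

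Whether the diet difference itself changed with genotype was tested as an interaction. No member was called for AwT+ against AwTw (0% of all genes), A+Tw against AwTw (0%) or A+T+ against AwTw (0%). At an unadjusted p below 0.05 there were 4 members for AwT+ (4.02% of all genes), 0 for A+Tw (2.21%) and 1 for A+T+ (6.30%). The smallest p was that of Setd2 for AwT+ (-0.45, SE 0.17, adjusted p = 0.78), of Kat2a for A+Tw (-0.33, SE 0.17, adjusted p = 0.919) and of Crebbp for A+T+ (0.53, SE 0.25, adjusted p = 0.56). For Ep300 the interaction was 0.08 (SE 0.30), -0.03 (SE 0.31) and 0.06 (SE 0.32). The call of Setd2 in AwTw and its absence in the transgenic mice is thus no tested difference. The 3 interactions share the AwTw mice.

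Other chromatin genes, held in 9 lists of 165 genes of which 163 were measured, showed 24 higher (14.7%) and 32 lower (19.6%) on TWD with a median of -0.02, beside the 16.0% and 13.4% of all genes. Among 12 partners of the Kmt2 methyltransferases 3 rose and 3 fell, with Pagr1a at 0.45 (adjusted p = 0.0157) and Men1 (menin) at 0.23 (adjusted p = 0.0159). Of 26 Polycomb genes 2 rose and 6 fell, with Suz12, a core subunit of PRC2, at -0.68 (adjusted p = 0.0159) and Pcgf1 at 0.24 (adjusted p = 0.0239). Of 27 SWI/SNF and related remodeller genes 4 rose and 7 fell, with Smarcb1 at 0.22 (adjusted p = 0.0157) and Arid2 at -0.38 (adjusted p = 0.0159). Of 27 methyltransferases of other names 3 rose and 4 fell, with Smyd2 at 0.33 (adjusted p = 0.0157) and the arginine methyltransferase Prmt1 at 0.27 (adjusted p = 0.0159). Of 7 measured demethylases of other names 1 rose, Jmjd6 at 0.27 (adjusted p = 0.0157), and 1 fell, Jmjd1c at -0.39 (adjusted p = 0.044).

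Of 20 other acetyltransferases and partners 4 rose and 4 fell, with Sgf29 of SAGA at 0.33 (adjusted p = 0.0157) and Epc1 of NuA4 at -0.27 (adjusted p = 0.0172). Of 30 genes of the deacetylase complexes and sirtuins 6 rose and 6 fell, with Rcor1, the scaffold of CoREST, at -0.40 (adjusted p = 0.0169) and Mbd3 of NuRD at 0.27 (adjusted p = 0.0172), so 2 partners of Hdac1 lay on opposite sides. None of 3 BET readers passed, with Brd2 at -0.07 (adjusted p = 0.257) and Brd3 at -0.09 (adjusted p = 0.362). Of the DNA methylation genes, the maintenance methyltransferase Dnmt1 rose by 0.13 (adjusted p = 0.0426). These calls are part of the fit that gave 0 calls over all genes without the 4 mice.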

How the data were processed

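Hippocampal RNA of 45 mice was sequenced as stranded mRNA libraries (single reads), 1 library a mouse. The authors cleaned the reads (Trimmomatic 0.38), discarded those that Bowtie2 2.2.3 placed on ribosomal or mitochondrial sequence (mm10) and estimated transcript abundance with kallisto 0.44.0. Genes with few counts were then left out, and DESeq2 1.22.2 stabilized the variance before limma 3.38.3 took out the batch. The deposited values are thus log2-like, and they do not give the sequencing depth of a mouse. What a batch was is not given in the sources used here. Batch means were equal for every gene as deposited, so batch stayed in each fit.

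All 15897 genes were tested with limma 3.58.1 (R 4.3.3, empirical Bayes with a mean trend) and Benjamini-Hochberg adjustment over all genes, called at 0.05. The diet fit held genotype, diet and batch, and the contrasts within genotypes and diets came from 1 fit of 8 groups and batch. Fold changes are differences of these values, with SE from the fit. Each mouse is a separate animal. Symbols, coordinates, length and GC content are from GENCODE M21 (GRCm38), with length and GC content for 98.7% of genes. Marker levels are means of standardized values. Mice stood apart where their mean correlation with the others lay over 3 median absolute deviations below the median, a rule chosen after seeing the data. The test was checked on simulated data with noise drawn separately for each gene, so the check did not cover variation shared between genes.

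Members and gene lists were chosen with earlier results of these data known. Named were Ep300 and Crebbp, the 10 called members of smallest p for diet, per family the largest difference and the smallest p, per other contrast the called members or the smallest p, and per other list the 2 of smallest p. Further members were named after their values were seen. One gene of the other lists is not reported here.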

Additional observations from a re-analysis of the deposited data

Results flagged for a closer look

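In 12 members (Ep300, Crebbp and the 10 with the smallest p for diet) the 8 groups gave 96 sets of 4 to 6 mice, and in 7 of them 1 mouse lay far from the others of its group. Chance alone gives about 1 in 20 for independent sets. These sets reuse the same mice and hold correlated genes, so the 7 were not tested against that share. Kdm5a was at 6.41 in AwTw/TWD replicate 3, against a group median of 8.26, and Kdm6a was at 6.02 in A+T+/TWD replicate 1, against 7.99. That mouse also had the highest Hdac11 of its group, 12.49 against 12.03. Both mice are among the 4 that stood apart. Setd5 was at 9.71 in AwT+/TWD replicate 3 (median 10.28), Kat6a at 9.11 in AwTw/STD replicate 2 (median 9.82) and Kat6b at 9.10 in A+Tw/STD replicate 2 (median 9.69). Kat6b was at 9.98 in AwT+/STD replicate 4 (median 9.83), a high value in a narrow group. Of these 7 values 6 came from batch 1, and the Kat6a value came from batch 0.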

How the results depend on the processing

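The count of members called for diet over all genotypes, 28, became 0 in batch 0 alone, 0 with the first residual component as a covariate and 14 with the trend over transcript length and GC content removed. An alternative chosen after seeing the data, leaving out the 4 mice that stood apart, gave 0. Leaving out 1 mouse at a time gave 17 to 34, with 17 without AwTw/TWD replicate 3 and 18 without AwT+/TWD replicate 3. The count stayed between 25 and 30 under the other alternatives tried (no batch term, batch 1 alone, genes above the 25th percentile of the mean, quantile normalization, no mean trend, repeated genes counted once, the letters of the mouse label or the choroid plexus level in the fit). Within AwTw mice, 5 became 17 in batch 1 alone and 8 with the filter on the mean. It became 0 in batch 0 alone, with quantile normalization, without the mean trend, with the component, the letters or the length and GC trend, with only the groups compared in the fit and without the 4 mice, and 0 to 23 with 1 mouse left out. The other 13 counts were 0 in every alternative. Apart from the fits that left out 1 mouse, which were not counted here, none of the 28 changed sign for diet. With the filter on the mean 27 of them were tested, without the low Kdm4d. These fits reuse mice of the fit that called the 28, so the kept signs are not independent of it. Of the 37 members that were not called, 9 changed sign with the component in the fit, among them Kdm7a, from -0.42 to 0.17 (adjusted p = 0.587), 11 with the length and GC trend removed, among them Chd2, from -0.17 to 0.00270, 9 in batch 0 alone, 0 to 3 in the other alternatives above and 1 without the 4 mice, Hdac2. The cause of these changes was not tested. No paired analysis was possible because replicate numbers were given in order within each group and pair no mice. Precision rests on the spread between mice, since depth is not known.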
